A study of Rattus norvegicus with 23 samples.

Results

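Citric acid cycle enzymes are described here across newborn rat hearts from 4 maternal exposures. The set was chosen by gene symbol, as the probe sets whose only symbol in the array annotation was Cs, Idh3a, Idh3b, Idh2, Ogdh, Dlst, Suclg1, Fh or Mdh2. It held 7 of these 9 genes on 8 of the 29170 probe sets, since Cs had 2. The probe set of Dlst also carries the symbol of Afdn and was not used, and Fh matched no probe set by symbol or gene identifier, so Dlst and Fh were not analysed here.

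RNA of 23 whole hearts from postnatal day 1 Sprague Dawley rats was hybridized to Affymetrix Rat Gene 1.0 ST arrays, 1 heart to each array. Dams ate a control or a high-fat (HF) diet from at least 28 days before mating until birth. On gestational day 14 they were injected with citrate buffer or with 65 mg/kg streptozotocin, which kills the insulin-producing beta cells, and insulin held the hyperglycemia only in part, at a target of 200 to 400 mg/dl. The groups were control (control diet and buffer, n = 7), diabetes exposed (control diet and streptozotocin, n = 6), HF diet exposed (HF diet and buffer, n = 5) and combination exposed (HF diet and streptozotocin, n = 5). The diabetes of this model thus begins late in pregnancy and follows a toxin, and diet began before conception. Each group mixed males and females, and the labels do not give the sex of each heart.

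The citric acid cycle is the loop of reactions in the mitochondrial matrix that oxidizes acetyl-CoA to carbon dioxide and hands the electrons to the respiratory chain. Acetyl-CoA enters from pyruvate, fatty acids and ketone bodies, and intermediates leave for the synthesis of glucose, lipids and amino acids. Around birth the rat heart turns from glucose and lactate, its main fuels in the fetus, towards fatty acids, and the cycle is the pathway that both fuels share.

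A value is a normalized log2 intensity. Each probe set was centred on its median over the 23 hearts, so a value of 0 is that median and the table holds differences between hearts but not how strongly a gene was expressed. A linear model was fitted with limma to all probe sets, and a probe set was past the threshold where its difference exceeded 0.322 on the log2 scale in either direction, the fold limit of the study's methods, with an unadjusted p under 0.05. Adjusted p-values are those of limma after Benjamini-Hochberg adjustment over 29170 probe sets. Sample codes in the labels share 19 stems, only 3 of them among the 5 HF diet exposed hearts and 3 among the 5 combination exposed hearts. Whether a shared stem means littermates is not stated, so a p-value here reflects only the spread among the hearts measured. In whole hearts, fewer cells of a type and less RNA per cell cannot be told apart.

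Control heart 1 and combination heart 1 stood apart from the rest. All 8 markers of lung and thymus were higher in control heart 1 than in any other heart, at a mean of 4.3 against at most 0.736 in the other 22 hearts. Values of members with and without these hearts are given where they bear on a result, and for genes outside the set none were taken. Combination heart 1 had the widest SD over probe sets, 0.393, where the widest in control hearts was 0.333 and the lowest value among the arrays was 0.16. Cardiomyocyte markers, 14 of 14 measured, had group means from -0.0734 in combination exposed to 0.0204 in HF diet exposed hearts. Erythroid markers, 7 of 10 measured, averaged 0.322 in combination exposed, 0.237 in diabetes exposed, -0.143 in HF diet exposed and -0.191 in control hearts. Fibroblast markers, 9 of 9 measured, averaged -0.12 in combination exposed hearts against 0.00295 in control, 0.0111 in diabetes exposed and -0.023 in HF diet exposed hearts. Brown fat markers, 4 of 5 measured, averaged -0.28 in combination exposed hearts against 0.322, 0.388 and 0.0442, with hearts of the control group from -0.574 to 1.32. The part of these markers in the results was not tested.

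No citric acid cycle enzyme was past the threshold in any of the 6 pairwise comparisons of the groups, and in limma 0 of the 8 probe sets passed an adjusted p of 0.05. The only member with an unadjusted p under 0.05 was Suclg1, 1 of the 8. It had that p in combination exposed against HF diet exposed hearts (13.3% of all probe sets) and against diabetes exposed hearts (9.41%). The other 4 comparisons had 0 members with such a p. Under other settings Suclg1 lost that p against diabetes exposed hearts with a replicate block, where the difference was 0.161. It also lost it without combination heart 4 or 5 or diabetes heart 3, 4 or 6. It gained it between HF diet exposed and control hearts with the block, at a difference of -0.206. Probe set 10902022 of Cs gained it between combination exposed and HF diet exposed hearts without combination heart 1, at a difference of 0.135. The 48 pairwise differences ran from -0.137 to 0.248, and 10 of them were larger than 0.1 in absolute value. For 46 of the 48 the whole 95% interval lay within the fold limit in either direction, and both exceptions were Suclg1. Among all probe sets such intervals made up 44.1% to 69.8%, depending on the comparison.

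**Figure D1:**
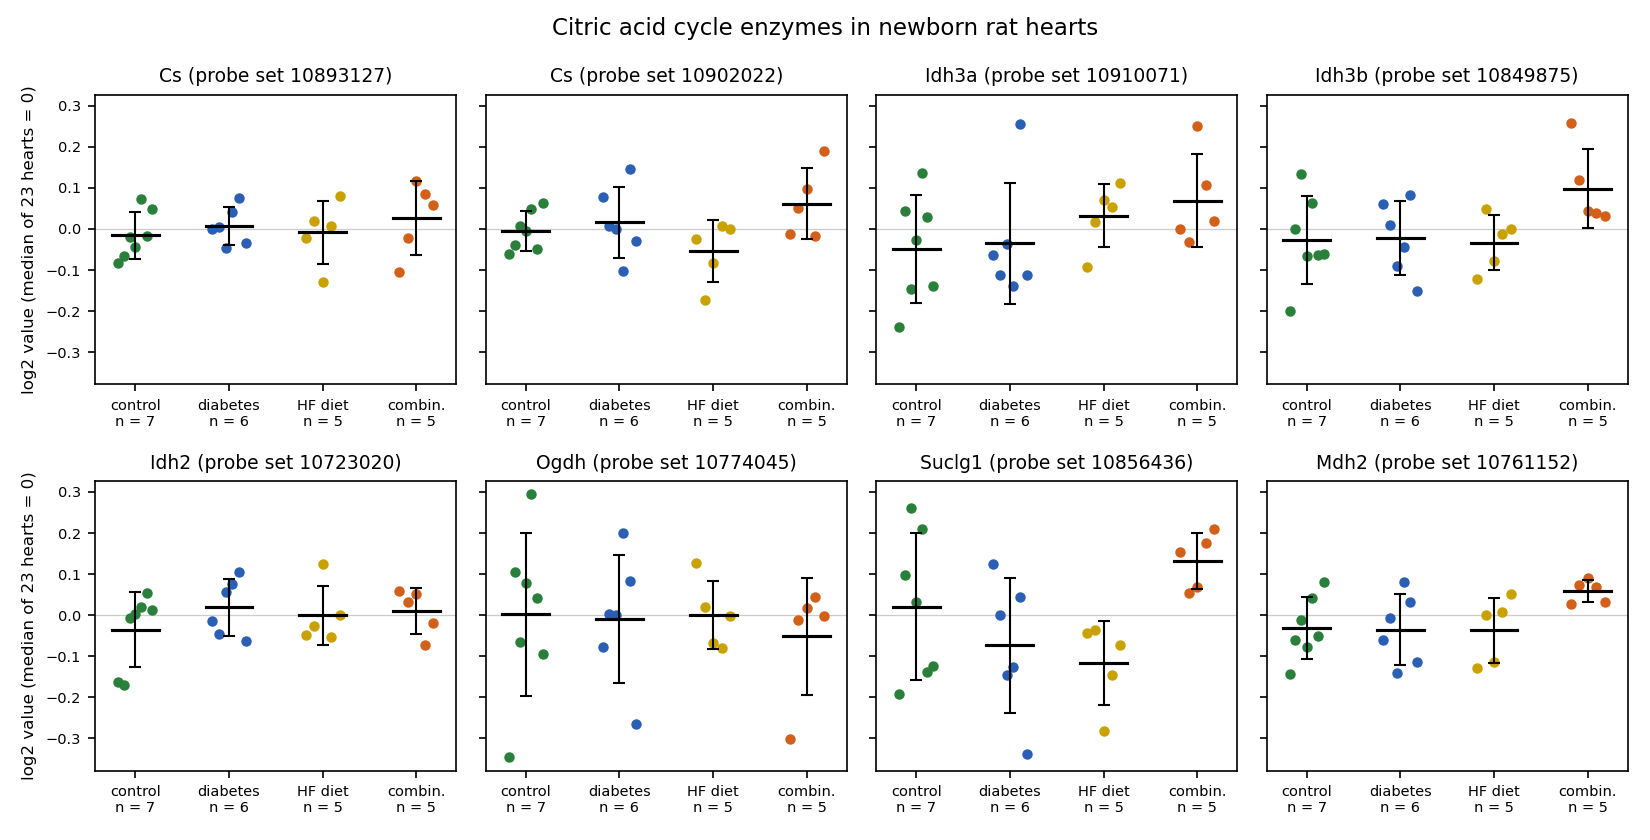
Log2 value of each heart (vertical axis, 0 is the median of the 23 hearts) by exposure group (horizontal axis) for the 8 probe sets of citric acid cycle enzymes. Each point is 1 heart, bars are means and whiskers are SD. The 5 combination exposed hearts of Suclg1 lie from 0.053 to 0.209, above all 5 HF diet exposed hearts. Those 2 groups did not overlap for 1.64% of all probe sets.

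Citrate synthase, encoded by Cs, joins acetyl-CoA to oxaloacetate and opens the cycle. On probe set 10893127 control hearts had a median of -0.02, with a lowest value of -0.082 and a highest of 0.072, and diabetes exposed hearts a median of 0.002, from -0.047 to 0.076. The HF diet exposed hearts read -0.021, 0.02, -0.13, 0.008 and 0.081, and the combination exposed hearts -0.105, -0.022, 0.117, 0.085 and 0.059. All 4 groups overlapped, and combination heart 1 was among the lowest of all hearts. The combination exposed mean was 0.0268 ± 0.0899 (SD, n = 5) against -0.0154 ± 0.057 (SD, n = 7) in control, a difference of 0.042 (95% interval -0.0663 to 0.151, adjusted p = 0.777). Probe set 10902022 gave 0.067 for the same difference (95% interval -0.0466 to 0.180, adjusted p = 0.654). Its widest gap was that between combination exposed and HF diet exposed hearts, 0.116 (95% interval -0.00639 to 0.239), so the 2 probe sets of Cs read the same gene with differences of 0.035 and 0.116 in that comparison. Without combination heart 1 the difference from control rose to 0.075 and 0.085, and without control heart 1 it fell to 0.031 and 0.058.

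The mitochondrial NAD-dependent isocitrate dehydrogenase is built of alpha, beta and gamma subunits, of which Idh3a encodes the catalytic alpha subunit and Idh3b the beta subunit. For Idh3b, control hearts had a median of -0.061, from -0.2 to 0.134, and diabetes exposed hearts a median of -0.0175, from -0.151 to 0.083. HF diet exposed hearts read -0.122, 0.049, -0.079, -0.012 and -0.001, and combination exposed hearts 0.258, 0.119, 0.044, 0.039 and 0.032. All 5 combination exposed hearts were above the median of the 23 hearts, yet each other group held at least 1 heart above the lowest of them. The difference from control was 0.126 (standard error 0.0627, 95% interval -0.00377 to 0.256, adjusted p = 0.505). It was 0.086 without combination heart 1 and 0.097 without control heart 1.

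Idh3a spread more widely within groups. Control hearts ran from -0.238 to 0.137 with a median of -0.026, diabetes exposed hearts from -0.139 to 0.256 with a median of -0.0875, and HF diet exposed hearts from -0.092 to 0.111. The combination exposed hearts read 0, -0.032, 0.25, 0.107 and 0.02. The groups overlapped, and the difference between combination exposed and control hearts was 0.117 (standard error 0.076, 95% interval -0.0401 to 0.275, adjusted p = 0.578). Without combination heart 3, the highest of its group, it was 0.072, and over all hearts left out singly it ran from there to 0.148. Leaving out control heart 1 gave 0.086 and leaving out combination heart 1 gave 0.135. Idh3g, which encodes the gamma subunit and is no member of the set, had a difference of 0.109 (95% interval -0.00577 to 0.224, adjusted p = 0.509). Combination heart 1 was the highest of its group for Idh3g, at 0.228, and the rest of that group ran from -0.024 to 0.118. The 3 subunits thus had differences of 0.117, 0.126 and 0.109 from control in combination exposed hearts, none past the threshold. In the diabetes exposed hearts the same 3 values were 0.014, 0.006 and 0.005.

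Idh2 encodes the NADP-dependent isocitrate dehydrogenase of the mitochondria, which makes NADPH for the defence against oxidants. Its group means were -0.0357 ± 0.0913 for the 7 control hearts, 0.0195 ± 0.0695 for the 6 diabetes exposed, -0.0004 ± 0.0726 for the 5 HF diet exposed and 0.0104 ± 0.0549 for the 5 combination exposed hearts (mean ± SD). Control hearts 1 and 2, at -0.163 and -0.17, were the lowest of the 23. Its 6 pairwise differences lay between -0.0091 and 0.055, and the farthest bound of any interval was 0.164. Neither isocitrate dehydrogenase, NAD-dependent or NADP-dependent, passed the threshold in any pairwise comparison.

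Ogdh encodes the first subunit of the 2-oxoglutarate dehydrogenase complex, which makes succinyl-CoA and is a point of control by calcium. It was the member with the widest spread. Control hearts ran from -0.346 to 0.294 with a median of 0.042, and diabetes exposed hearts from -0.264 to 0.201 with a median of 0.002. The HF diet exposed hearts read 0.127, 0.019, -0.068, -0.079 and -0.002, and the combination exposed hearts -0.302, -0.012, 0.017, 0.045 and -0.003. It was the only member lower in combination exposed than in control hearts, by a difference of -0.053 (95% interval -0.244 to 0.139, adjusted p = 0.848). That sign rested on combination heart 1, without which the difference was 0.01, while without control heart 1 it was -0.111.

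Suclg1 encodes the alpha subunit that both forms of succinate-CoA ligase share, the enzyme of the step that makes ATP or GTP directly. Control hearts ran from -0.192 to 0.262 with a median of 0.032, and diabetes exposed hearts from -0.337 to 0.125 with a median of -0.0635. The HF diet exposed hearts read -0.043, -0.037, -0.281, -0.146 and -0.073, and the combination exposed hearts 0.155, 0.053, 0.069, 0.176 and 0.209. Every HF diet exposed heart was below 0 and every combination exposed heart above it, so these groups did not overlap. In that comparison 1.64% of all probe sets had groups without overlap. Control hearts overlapped with both groups.

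Suclg1 was 0.248 higher in combination exposed than in HF diet exposed hearts (standard error 0.0925, 95% interval 0.0568 to 0.44, adjusted p = 0.368). It was 0.206 higher than in diabetes exposed hearts (standard error 0.0886, 95% interval 0.0223 to 0.389, adjusted p = 0.528). Neither difference reached the fold limit nor passed the adjustment. Against control the difference was 0.111 (95% interval -0.0661 to 0.289, adjusted p = 0.637), and it was 0.076 without control heart 1 and 0.106 without combination heart 1. In the groups with a single exposure the differences from control were negative, at -0.0945 for diabetes (95% interval -0.263 to 0.0741) and -0.137 for HF diet (95% interval -0.315 to 0.0402). The interaction of diabetes and HF diet, which is how far the difference of combination exposed from HF diet exposed hearts exceeded that of diabetes exposed from control hearts, was 0.343 (standard error 0.123, 95% interval 0.0877 to 0.598). It was past the threshold but not after adjustment (adjusted p = 0.672). It fell short of the fold limit, at 0.303, 0.311, 0.29 and 0.302, without control heart 3, control heart 5, diabetes heart 6 or HF diet heart 3. It was 0.378 without control heart 1.

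The partners of Suclg1 were read as well. Sucla2, the beta subunit of the ATP-forming ligase, had an interaction of 0.149 (95% interval -0.0474 to 0.346, adjusted p = 0.674). Suclg2, the beta subunit of the GTP-forming ligase, had one of 0.0212 (95% interval -0.241 to 0.284, adjusted p = 0.965). In combination exposed against HF diet exposed hearts Sucla2 differed by 0.108 and Suclg2 by 0.03, and in both cases the groups overlapped. Whether Suclg1 differed from its partners was not tested.

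**Figure D2:**
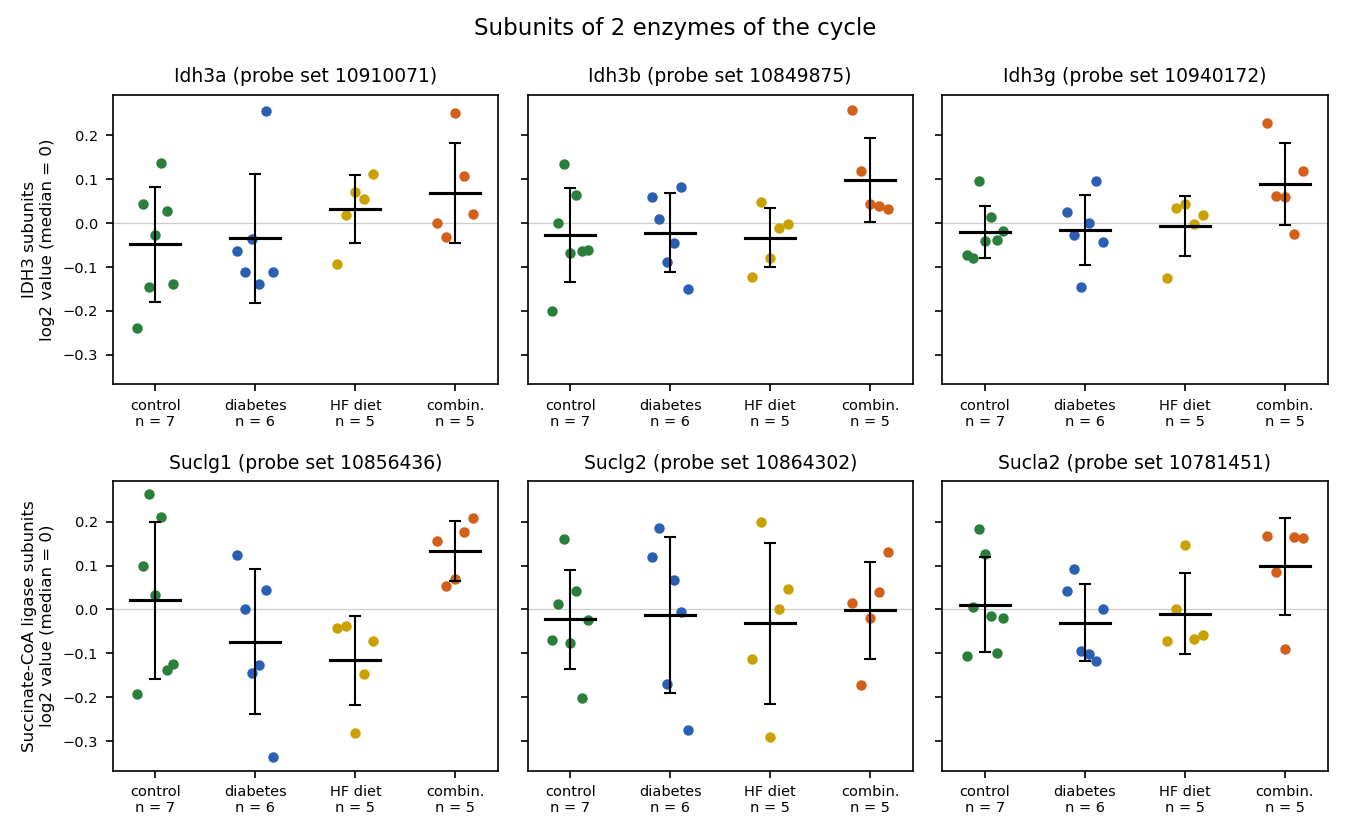
Log2 value of each heart (vertical axis, 0 is the median of the 23 hearts) by exposure group (horizontal axis) for subunits of NAD-dependent isocitrate dehydrogenase (upper row) and of succinate-CoA ligase (lower row). Points are hearts, bars are means and whiskers are SD. Among the 6 genes only Suclg1 has combination exposed hearts that lie wholly above the HF diet exposed hearts. Those 2 groups did not overlap for 1.64% of all probe sets.

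Mdh2 encodes the mitochondrial malate dehydrogenase, which closes the cycle by making oxaloacetate and also serves the malate-aspartate shuttle. Control hearts ran from -0.143 to 0.081 with a median of -0.05, and diabetes exposed hearts from -0.141 to 0.08 with a median of -0.034. The HF diet exposed hearts read -0.128, 0, -0.114, 0.008 and 0.051, and the combination exposed hearts 0.027, 0.073, 0.091, 0.068 and 0.033. The combination exposed hearts were all above 0 and close together, but the other groups each had hearts among them. The difference from control was 0.0897 (standard error 0.0543, 95% interval -0.0227 to 0.202, adjusted p = 0.557), and it was 0.071 without control heart 1. The differences of Mdh2 in the diabetes exposed and HF diet exposed hearts were -0.0037 and -0.0053.

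Read by comparison, most members lay higher in combination exposed than in control hearts, by less than the threshold. Of the 8 probe sets, 7 were positive with a median of 0.0783, where the median of all probe sets was 0.00183 and 50.6% of them were positive. Past the threshold were 0 members against 3.31% of all probe sets, at an unadjusted p under 0.05 0 against 9.9%, after adjustment 0 against 0%, and with groups that did not overlap 0 against 0.202%. All 8 intervals lay within the fold limit, as did 52.5% of those of all probe sets. The members share the same control and combination exposed hearts and vary together, so 7 of 8 are not 7 separate observations.

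Diabetes exposed hearts were nearer to control. The median difference of the members was 0.0098 with 5 of 8 positive, against -0.00017 for all probe sets. No member was past the threshold (0.305% of all probe sets), none had an unadjusted p under 0.05 (1.61%), none passed the adjustment in limma (0%) and none had groups without overlap (0.024%). HF diet exposed hearts gave a median of -0.0039 with 3 of 8 positive, against 0.0134 for all probe sets. The counts of members by the same 4 rules were again 0, where all probe sets gave 0.943%, 2.67%, 0% and 0.127%. In both comparisons all 8 intervals lay within the fold limit, as did 69.8% and 62.1% of all intervals.

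**Figure D3:**
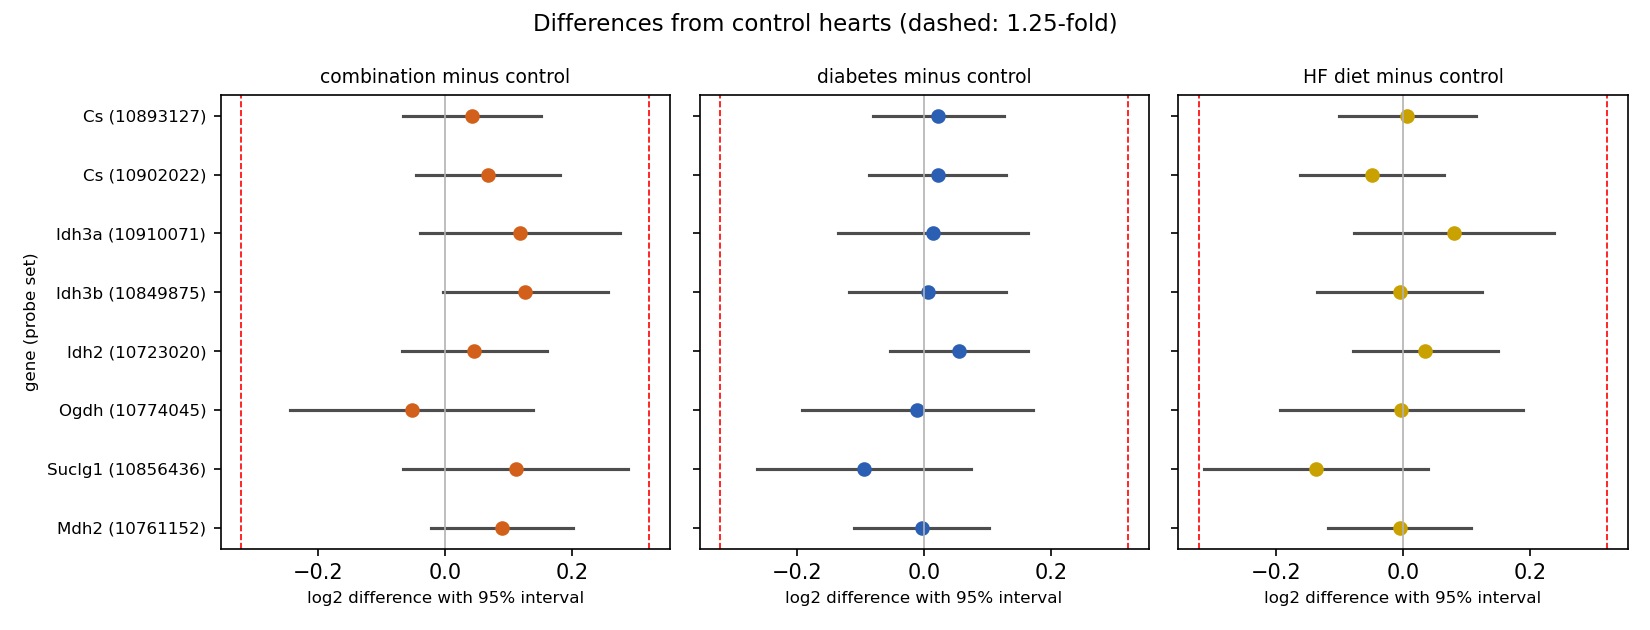
Log2 difference from control hearts (horizontal axis) with its 95% interval for the 8 probe sets of citric acid cycle enzymes (vertical axis) in combination exposed, diabetes exposed and HF diet exposed hearts. Dashed lines mark the fold limit of 0.322 in either direction, and all 24 intervals lie between them.

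The members were also compared between exposed groups. Combination exposed hearts lay above diabetes exposed hearts by a median of 0.0693 with 6 of 8 positive, and above HF diet exposed hearts by 0.0658 with 7 of 8 positive, where all probe sets had medians of 0.0036 and -0.0113. Against diabetes exposed hearts 0 members were past the threshold (3.04% of all probe sets), 1 had an unadjusted p under 0.05 (9.41%), 0 passed the adjustment (0%) and 0 had groups without overlap (0.387%). Against HF diet exposed hearts the counts were 0 (5.76%), 1 (13.3%), 0 (0%) and 1 (1.64%). Diabetes exposed less HF diet exposed hearts gave a median of 0.0131 and counts of 0 by the 4 rules (0.439%, 2.16%, 0% and 0.182%). For the interaction, 1 member, Suclg1, was past the threshold (4.34% of all probe sets) and had an unadjusted p under 0.05 (6.5%), and 0 passed the adjustment (0%).

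Averaged over the 7 genes, the hearts read 0.02, 0.035, 0.09, 0.057 and 0.057 in the combination exposed group and -0.047, -0.008, -0.065, -0.031 and 0.018 in the HF diet exposed group. Control hearts ran from -0.193, in control heart 1, to 0.118, and diabetes exposed hearts from -0.153 to 0.102. The combination exposed averages thus lay inside the range of the control hearts. Control heart 5 alone set the upper end of that range, and the next highest control heart read 0.023.

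The enzymes of the cycle differed in how much they varied between hearts of 1 group. The within-group SD was 0.0674 and 0.0737 for the probe sets of Cs, 0.0723 for Mdh2, 0.0752 for Idh2 and 0.093 for Idh3b. Only 0.888%, 1.3%, 1.18%, 1.46% and 4.27% of all probe sets had a smaller SD than these. Idh3a stood at 0.123, Suclg1 at 0.143 and Ogdh at 0.157, still under the median of 0.176 over all probe sets. A small SD here is that of log2 values whose intensity is not known, since a dim probe set can also vary little. Groups made up 32.7% of the variance of Suclg1, 27.4% of that of Idh3b and 2.02% of that of Ogdh, where the median over all probe sets was 13%.

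**Figure D4:**
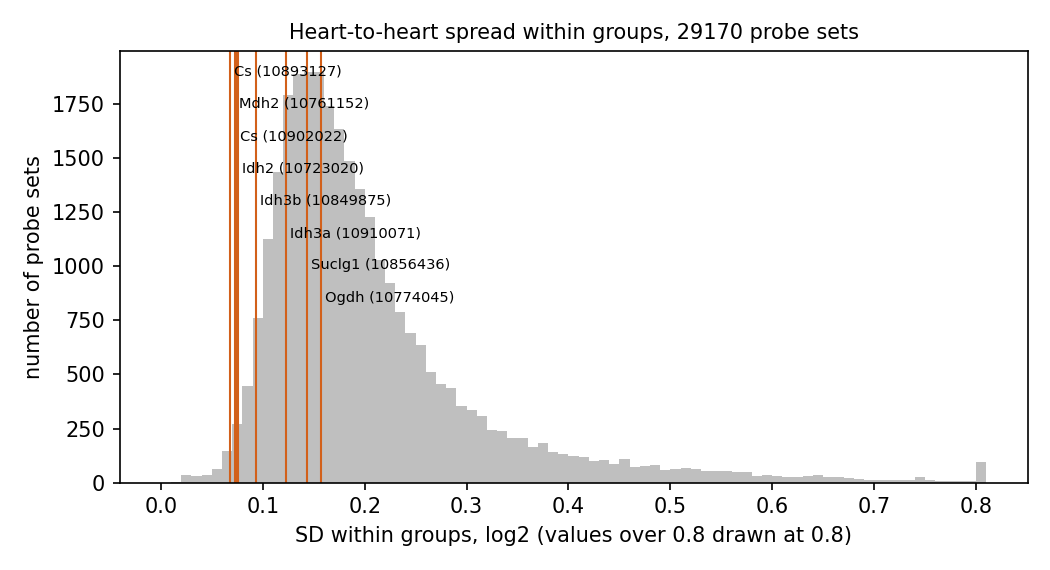
Number of probe sets (vertical axis) by SD within groups on the log2 scale (horizontal axis) for all 29170 probe sets, with 1 vertical line for each probe set of a citric acid cycle enzyme. The lines run from 0.0674 for Cs to 0.157 for Ogdh, all below the median of 0.176.

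Across the 23 hearts, 20 of the 21 pairs of member genes had a positive correlation, with a median Pearson's r of 0.324. The range was from -0.0481, for Idh2 and Suclg1, to 0.753, for Idh3b and Suclg1. For Idh3b and Suclg1 Spearman's rho was 0.806, and both coefficients had an adjusted permutation p of 0.00063 over 21 pairs. Leaving out the 2 hearts farthest from the median of Idh3b gave r = 0.778, and deviations from the group means gave 0.722. Idh3b and Mdh2 had r = 0.613 (adjusted permutation p = 0.0135) and rho = 0.557 (adjusted permutation p = 0.0482), with r = 0.6 without the 2 farthest hearts and 0.476 on deviations from the group means. Cs and Mdh2 had r = 0.6 (adjusted permutation p = 0.0193) and rho = 0.6 (adjusted permutation p = 0.0309), with r = 0.615 without the 2 farthest hearts and 0.537 on deviations. Without control heart 1 the 3 values of r were 0.74, 0.543 and 0.562, and without combination heart 1 they were 0.777, 0.664 and 0.645. The other 18 pairs did not pass the adjustment by both coefficients.

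These correlations were shared with many other genes. Of 15302 other probe sets with 1 symbol, 5.95% correlated with Idh3b at least as highly as Suclg1 did, and 13.6% at least as highly as Mdh2 did. For Mdh2, 4.55% correlated at least as highly as Cs did. The leading principal component of all probe sets accounted for 28.8% of the variance among hearts and had r = 0.859 with Idh3b, 0.698 with Mdh2 and 0.643 with Suclg1, but 0.401 with Cs, 0.36 with Idh3a, 0.351 with Idh2 and 0.165 with Ogdh. Positions on it averaged 18.3 in combination exposed, -1.77 in control, -4.48 in diabetes exposed and -10.5 in HF diet exposed hearts. Whether array quality has a part in the correlations, or in the differences between groups, was not tested. The 5 probe sets most like the mean of the 7 genes were those of Cops7a (r = 0.91), Sgta (0.902), Pter (0.899), Nipa1 (0.888) and Zdhhc13 (0.888) over 23 hearts.

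**Figure D5:**
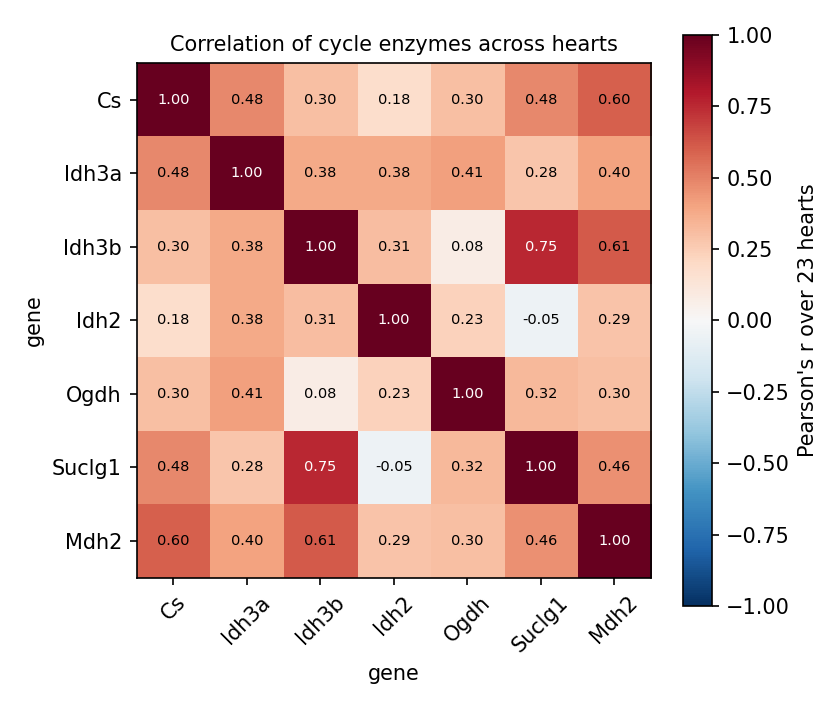
Pearson's r over 23 hearts for each pair of the 7 citric acid cycle genes (both axes list the genes, color and number give r). The highest value is that of Idh3b and Suclg1, 0.753, and the lowest that of Idh2 and Suclg1, -0.0481.

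The promoters of the 4 genes in the correlated pairs are shown so that their sequences can be compared. Each is the 250 bases before the transcript start, 5′ to 3′ on the gene's strand, from RefSeq in build GRCr8. Idh3b lies at chr3:137939991-137940240 on the minus strand, Suclg1 at chr4:106866079-106866328 on the plus strand, Mdh2 at chr12:26543842-26544091 on the minus strand and Cs at chr7:1348139-1348388 on the plus strand. Capitals mark matches, on either strand, to the letters of 8 motifs. The estrogen-related receptors were searched as AAGGTCA, the nuclear respiratory factor NRF1 as GCATGCG, the ETS factor GABPA as CCGGAAG and the zinc finger factor YY1 as ATGGCGG. The site of SP1 was searched as GGGCGG, the box bound by the factor NFY as CCAAT, the core promoter element of the TATA-binding protein as TATAAA and the E box as CACGTG.
Idh3b: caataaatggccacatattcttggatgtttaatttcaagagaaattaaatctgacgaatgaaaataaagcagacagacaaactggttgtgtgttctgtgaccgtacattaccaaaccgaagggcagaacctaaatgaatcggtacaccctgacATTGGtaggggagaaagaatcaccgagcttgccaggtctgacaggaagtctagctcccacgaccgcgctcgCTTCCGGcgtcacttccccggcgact
Suclg1: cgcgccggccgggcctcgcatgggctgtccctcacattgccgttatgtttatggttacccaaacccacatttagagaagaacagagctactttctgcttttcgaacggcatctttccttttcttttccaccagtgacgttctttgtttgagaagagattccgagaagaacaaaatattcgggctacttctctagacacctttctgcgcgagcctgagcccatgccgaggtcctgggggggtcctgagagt
Mdh2: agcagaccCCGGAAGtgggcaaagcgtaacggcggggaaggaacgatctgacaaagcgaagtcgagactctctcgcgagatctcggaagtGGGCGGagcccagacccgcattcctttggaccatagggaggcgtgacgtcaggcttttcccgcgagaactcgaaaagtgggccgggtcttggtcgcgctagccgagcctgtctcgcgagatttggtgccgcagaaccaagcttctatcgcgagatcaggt
Cs: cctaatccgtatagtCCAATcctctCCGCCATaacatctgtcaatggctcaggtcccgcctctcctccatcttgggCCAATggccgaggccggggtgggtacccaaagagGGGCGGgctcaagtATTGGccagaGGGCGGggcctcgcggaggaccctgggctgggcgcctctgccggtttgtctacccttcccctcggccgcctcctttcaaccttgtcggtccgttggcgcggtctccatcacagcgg

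Sequences were found for 8 of the 9 genes, and for Idh3a none was used. The letters CCGGAAG, the core that GABPA, a factor of many genes for mitochondrial proteins, is known to bind, were in 3 of the 8 windows, those of Idh3b, Dlst and Mdh2, and in 7.27% of 33469 promoters. In the window of Idh3b they begin 26 bases before the start on the minus strand, and in that of Mdh2 242 bases before it on the plus strand. GGGCGG was in 5 of the 8 windows (30.5% of all promoters), CCAAT in 5 (34%), ATGGCGG in 1, that of Cs (2.47%), and CACGTG in 1, that of Ogdh (5.59%). AAGGTCA (3.99% of all promoters), GCATGCG (2.93%) and TATAAA (12.9%) were in 0 of the 8. None of the 8 motifs had a match in the window of Suclg1, so the most strongly correlated pair, Idh3b and Suclg1, shared none of these letters. The share of bases G and C ran from 47.2% to 68.8% in the 8 windows, against a median of 51.2% over all promoters. The shares of promoters with a motif were not adjusted for it. A match of letters is a description and not a binding site.

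Other genes of the cycle were read from a list of 9, of which 8 were measured (Sdha, Sdhb, Sdhc, Sdhd, Sucla2, Suclg2, Dld and Idh3g). Past the threshold were 0 of these 8 in any comparison, where all probe sets gave 0.305% to 5.76%. All 8 were positive in combination exposed against control hearts, with a median of 0.0846, where 50.6% of all probe sets were positive. They share the same hearts, so these are not 8 separate observations. Dld, the dihydrolipoyl dehydrogenase shared by the pyruvate and 2-oxoglutarate dehydrogenase complexes, differed most, by 0.168 (95% interval 0.0155 to 0.321, adjusted p = 0.496). Control heart 1 was the lowest control heart of Dld, at -0.269, and the rest of that group ran from -0.068 to 0.087. The 5 combination exposed hearts of Dld read 0.261, 0.209, 0.013, 0.071 and 0.148, the highest being combination heart 1. All were above the diabetes exposed hearts, which ran from -0.147 to -0.042, and 0.387% of all probe sets had no overlap in that comparison. The difference of Dld between combination exposed and diabetes exposed hearts was 0.214 (95% interval 0.0558 to 0.371, adjusted p = 0.528). The succinate dehydrogenase subunits, which form complex II of the respiratory chain, differed from control by 0.0431 (Sdha), 0.0821 (Sdhb), 0.0335 (Sdhc) and 0.149 (Sdhd). For Sdhd, combination heart 1 read 0.499, where the next highest of its group read 0.153. Control heart 1 was the lowest control heart of Sdhd, at -0.204. How far the difference of Sdhd rests on these hearts was not tested.

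The enzymes and carriers that feed pyruvate into the cycle were read on 15 probe sets of 13 genes. Of these 15, 3 were past the threshold in combination exposed against control hearts and all 3 were higher, where all probe sets gave 3.31%, 614 of them higher and 351 lower. They were Mpc1 (0.407) and Mpc2 (0.381), the subunits of the mitochondrial pyruvate carrier, and Pdk1 (0.499), a kinase that turns pyruvate dehydrogenase off, each with an adjusted p of 0.495. For all 3 the groups overlapped. Combination exposed hearts ran from 0.073 to 0.926 for Mpc1, from 0.085 to 0.977 for Mpc2 and from -0.182 to 0.972 for Pdk1. Control hearts ran from -0.372 to 0.184, from -0.33 to 0.303 and from -0.315 to 0.363 in that order. How far these differences rest on single hearts was not tested. Among 27 probe sets of respiratory complexes III to V, 0 were past the threshold in combination exposed against control hearts. Of these 27, 25 were positive, with a median of 0.0644. For the interaction of diabetes and HF diet, 1 of the 27, Cox5b, was past the threshold, at 0.338 (adjusted p = 0.672 in limma). Of the 15 pyruvate probe sets 1 was past it, Mpc2, at 0.453 (adjusted p = 0.672 in limma). All probe sets gave 4.34%. Both genes were also higher in combination exposed than in HF diet exposed hearts without overlap, by 0.311 for Cox5b and 0.415 for Mpc2. Suclg1 had both results as well.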

How the data were processed

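The authors hybridized RNA of each heart to a Rat Gene 1.0 ST array, averaged probe cell intensities per probe set and normalized them in GeneSpring GX, and deposited log2 values centred on the median of each probe set. The sources used here do not give the normalization algorithm or the filter limits, and signal over background cannot be read. The centred values were used without further normalization or filter. Gene names came from the annotation of the array (15310 with 1 symbol, 323 with several, 13537 with none). One mean per group was fitted to 23 hearts with limma 3.58.1 in R 4.3.3. The study's methods name a t-test with unequal variances, run here as an alternative. Correlations were tested with 100000 permutations, two-sided. The text names all members and the 5 probe sets most like them. Of the other lists, markers aside, it names the genes past the threshold and some of those with the smallest p. Members, gene lists and motifs were chosen with earlier results of these data known. Alternatives were the methods' t-test, a replicate block, the code stem as a random block, quantile normalization, array weights, fits on fewer hearts or probe sets, and leaving out each heart. Scripts were tested on simulated data. The number of arrays limits the precision.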

Additional observations from a re-analysis of the deposited data

Results flagged for a closer look

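In diabetes heart 5 Idh3a (probe set 10910071) read 0.256, while the other 5 diabetes exposed hearts lay between -0.139 and -0.037. In combination heart 1 Ogdh (probe set 10774045) read -0.302, while the other 4 combination exposed hearts lay between -0.012 and 0.045. Both are single hearts far from their group by Dixon's ratio, and they are 2 of 32 groups of hearts examined, where chance gives about 1 in 20.

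For Suclg1 the interaction of diabetes and HF diet was 0.343, past the threshold without adjustment but not after it (adjusted p = 0.672 in limma), as it was for 4.34% of all probe sets. It fell short of the threshold with array weights and without any 1 of 4 hearts, so a different effect of diabetes on the 2 diets is not established.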

How the results depend on the processing

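No citric acid cycle enzyme passed the threshold in a pairwise comparison under any alternative run, including the methods' t-test. The 1 member past it for the interaction, Suclg1, dropped to 0 with array weights (0.292), and leaving out 1 heart gave 0 to 1 members, with differences from 0.29 to 0.383 for Suclg1. With a replicate block the interaction again had 1 member past the threshold and the pairwise comparisons 0. Of 31 pairs of same-numbered hearts from different groups, 7 had deviations that correlated above 0.1, and the 31 ran from -0.42 to 0.56. Differently numbered hearts were not compared, so these values cannot settle whether replicate numbers pair the hearts. No methods' t-test was run on the interaction. Of 376 member differences under other alternatives 9 changed sign, and of 736 with 1 heart left out 73 did. None of those that changed sign was past the threshold. Over all probe sets, the count past the threshold in combination exposed against control hearts was 965 by limma, 361 by the methods' t-test, 632 with the replicate block, 454 after quantile normalization and 380 with array weights, and with 1 heart left out it ran from 348 (without combination heart 1) to 2103 (without combination heart 4). The share of 3.31% set beside the members moves with it, and the cause was not tested. At an unadjusted p under 0.05, Idh3b, Mdh2, Idh3a and probe set 10902022 of Cs each passed in some comparison of combination exposed hearts under at least 1 alternative, with no difference past the fold limit. Signal over background is not known, so a flat member may be a dim one.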

Other observations

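Enzymes by which carbon enters or leaves the cycle besides pyruvate dehydrogenase were read on 19 probe sets of 18 genes. In combination exposed against HF diet exposed hearts 2 of the 19 were past the threshold, both higher, where 5.76% of all probe sets were past it. Me3, a mitochondrial NADP-dependent malic enzyme, averaged 0.19 ± 0.135 (SD, n = 5) in combination exposed and -0.149 ± 0.139 (SD, n = 5) in HF diet exposed hearts, and the groups did not overlap, as for 1.64% of all probe sets (difference 0.339, 95% interval 0.055 to 0.623, adjusted p = 0.368 in limma). Me1, the cytosolic malic enzyme, differed by 0.323 (95% interval 0.0107 to 0.636, adjusted p = 0.37) with overlap. Against control hearts 0 of the 19 were past the threshold, and Me2, the mitochondrial malic enzyme that uses NAD, had a difference of 0.297 (95% interval 0.0429 to 0.552, adjusted p = 0.495).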
